A study of Mus musculus with 2 samples.

Results

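The macrophage colony-stimulating factor axis was followed through 6 genes, Csf1, Il34, Csf1r, Csf2ra, Csf2rb and Csf3r, found by these symbols among the 31053 genes listed in both libraries. Both libraries hold single-cell RNA of the heart cells left after cardiomyocytes were settled out, from male C57BL6/J wildtype mice. One was made 20 days after transverse aortic constriction (TAC), a surgical narrowing that makes the left ventricle pump against raised pressure, and the other 20 days after sham surgery. Hearts were digested with collagenases and a protease, and viable single cells were sorted before droplet capture. Each group is 1 library, and the labels give neither the number of hearts in it nor the age of the mice. Every difference below therefore compares these libraries and not the conditions, and no test was possible.

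CSF1 and IL-34 are secreted or membrane-bound ligands of the receptor tyrosine kinase CSF1R, on which tissue macrophages depend for survival and growth. The receptor for GM-CSF pairs a specific alpha chain, encoded by Csf2ra, with a beta chain encoded by Csf2rb that also serves the receptors for IL-3 and IL-5. The receptor for G-CSF, encoded by Csf3r, drives the making and mobilisation of neutrophils. In the heart, resident macrophages persist under CSF1R signalling, and monocytes and neutrophils enter from blood after injury.

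The TAC library held 8901 barcodes and 96003109 UMIs (unique molecular identifiers, each a counted RNA molecule), of which 7854 cells were kept at a median of 11158 UMIs. The sham library held 8426 barcodes and 42490230 UMIs, of which 7894 cells were kept at a median of 4881.5 UMIs. The libraries shared 15 barcodes, 13 of them among kept cells. A cell took the name of a class when its mean scaled level of that class's markers reached 0.3 and led the next of 16 classes by at least 0.1, with at least 3 markers detected. None of the 6 genes was such a marker. Names therefore mean "fibroblast-like" and so on, and they are ranges of a score: of the macrophage-like cells, 43 of 993 in the TAC library and 37 of 1139 in the sham library lay within 0.05 of a limit. Fibroblast-like cells numbered 5444 in the TAC and 6124 in the sham library, endothelial-like cells 618 and 134, and lymphatic endothelial-like cells 239 and 51. Together with macrophage-like cells these were the 4 classes with at least 50 cells in both libraries, and ratios were formed in them alone. Pericyte-like cells numbered 69 and 34, neutrophil-like cells 63 and 4, and cardiomyocyte-like cells 34 and 21. Of 10 genes of dissociation and stress, 8 were at least 2-fold lower in TAC than in sham fibroblast-like cells, beside 2.69% of all genes, with a median log2 ratio of -1.10. In macrophage-like and endothelial-like cells 4 of 10 were lower, beside 1.67% and 8.09% of all genes. In lymphatic endothelial-like cells 2 of 10 were lower, beside 11.8% of all genes, with a median log2 ratio of -0.05.

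Levels are UMIs summed over the cells of a class per 1e6 UMIs of that class (CPM), with exact Poisson 95% intervals in brackets, and ratios carry exact conditional 95% intervals. Counting error is all that the intervals hold, and mice may differ by more. A level over a class cannot tell fewer expressing cells apart from less RNA per cell. Digestion and sorting also set which cells were sampled, so shares refer to sorted cells.

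In the GENCODE vM21 annotation of mm10, Csf1 lies at chr3:107741048-107760469 on the minus strand and Il34 at chr8:110741829-110805924 on the minus strand. Csf2ra lies at chr19:61223957-61228429 on the minus strand, Csf2rb at chr15:78325752-78353847 on the plus strand and Csf3r at chr4:126024550-126044440 on the plus strand. All are protein-coding. Exons of Il34 overlap the antisense genes Gm15894 and Gm15895. Whether counting used strand is not given in the sources used here, so reads of these genes may not be separable. Csf2rb has a neighbouring near-copy, Csf2rb2, and 18.8% of the 31-base words of Csf2rb transcripts and 11.8% of those in the last 300 bases also occur in Csf2rb2. How far this sharing affects the counts of Csf2rb was not tested.

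The promoters of the main stromal ligand and of receptor genes read in myeloid cells are shown because the ligand and receptor classes described next hardly overlapped. They run from 250 bases before to 50 bases after the start, as listed by RefSeq for GRCm38.p6, and are written 5′ to 3′ on the gene's strand. Windows are given for 3 of the 6 genes, and the others are not reported here. Capitals mark matches to an NF-kappaB motif (GGGA and CC with 4 bases between them) and to the core bound by PU.1, GAGGAA, each searched on both strands.
Csf1, chr3:107760420-107760719, minus strand: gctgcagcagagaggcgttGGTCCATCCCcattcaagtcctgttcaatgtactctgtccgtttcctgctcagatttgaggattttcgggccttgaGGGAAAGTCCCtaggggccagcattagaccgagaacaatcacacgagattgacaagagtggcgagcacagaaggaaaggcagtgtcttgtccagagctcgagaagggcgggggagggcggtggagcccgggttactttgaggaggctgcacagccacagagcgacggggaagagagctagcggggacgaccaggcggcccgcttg
Csf2ra, chr19:61228369-61228668, minus strand: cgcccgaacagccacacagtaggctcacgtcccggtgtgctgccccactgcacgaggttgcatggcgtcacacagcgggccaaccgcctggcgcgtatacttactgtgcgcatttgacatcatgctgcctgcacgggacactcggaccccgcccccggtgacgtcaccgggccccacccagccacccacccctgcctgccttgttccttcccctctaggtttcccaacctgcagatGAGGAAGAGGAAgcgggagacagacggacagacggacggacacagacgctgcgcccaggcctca
Csf3r, chr4:126024409-126024708, plus strand: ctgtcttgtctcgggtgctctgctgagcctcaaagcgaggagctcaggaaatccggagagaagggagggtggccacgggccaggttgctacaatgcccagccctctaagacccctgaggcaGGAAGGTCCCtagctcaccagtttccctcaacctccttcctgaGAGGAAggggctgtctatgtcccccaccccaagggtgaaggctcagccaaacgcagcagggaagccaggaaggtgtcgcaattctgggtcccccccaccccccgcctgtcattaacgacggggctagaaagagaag
The Csf1 window held NF-kappaB matches at -231 and, overlapping one another, at -155 and -154, and no PU.1 core. The Csf2ra window held the PU.1 core at -14 and -8, and the Csf3r window held it at -86 beside an NF-kappaB match at -129. Of 32851 promoters of the same length, 28.3% held the PU.1 core and 20.7% the NF-kappaB motif, so these matches are common and are given as a description. The AP-1 motif TGANTCA (7.81% of promoters), the C/EBP core TTGCNNAA (10.8%) and the E-box CACGTG (7.15%) were also searched, and these letters were not in the 3 windows.

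Csf1, the ligand gene, was read mainly in fibroblast-like cells, at nearly the same level in both libraries. Fibroblast-like cells held 6771 of 7378 Csf1 UMIs in the TAC library, 91.8% (91.1 to 92.4), and 2973 of 3136 in the sham library, 94.8% (94 to 95.6). These cells were 69.3% and 77.6% of all cells. Their Csf1 level was 101 CPM (98.7 to 104) in the TAC library and 94.1 CPM (90.7 to 97.5) in the sham library. The ratio of TAC to sham was 1.08 (1.03 to 1.12), a difference beyond counting error but short of the 2-fold limit used for calls.

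The shares of fibroblast-like cells with Csf1 were near one another once depth was made equal. Unthinned, 63.3% of TAC and 35.4% of sham cells held a Csf1 UMI. With 3800 UMIs drawn from each cell (216 TAC and 1144 sham cells were shallower and dropped), the shares were 31.2% (29.9 to 32.4) and 29.8% (28.6 to 31.1). In macrophage-like cells thinned alike, 2.75% of TAC and 2.01% of sham cells held one. Single fibroblast-like cells held at most 14 Csf1 UMIs in the TAC and 8 in the sham library.

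Endothelial-like cells, which line blood vessels, also held Csf1. They had 220 UMIs and 68.3 CPM (59.6 to 77.9) in the TAC library, against 32 UMIs and 95.2 CPM (65.1 to 134) in the sham library. The ratio was 0.717 (0.493 to 1.07), so the libraries did not differ beyond counting error, and a stricter class limit turned the log2 ratio from -0.47 to 0.12. In the TAC library the order among classes of at least 50 cells was fibroblast-like, neutrophil-like at 71.3 CPM (30.8 to 141, from 8 UMIs), endothelial-like, pericyte-like at 20.4 CPM (7.5 to 44.5), lymphatic endothelial-like at 15 CPM (10.1 to 21.6) and macrophage-like. Neighbours in that order had overlapping intervals, except endothelial-like and pericyte-like cells. In the sham library fibroblast-like and endothelial-like cells had overlapping intervals. The sham library also had 25 endocardial-like cells, with 12 Csf1 UMIs and 128 CPM (66.3 to 224), an interval that overlaps both. Of these cells 14 lay within 0.05 of a gate limit, and the TAC library had 0 endocardial-like cells.

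Lymphatic endothelial-like cells had 29 Csf1 UMIs in the TAC library against 1 UMI in the sham library, 15 CPM against 7.15 CPM. The ratio of 2.1 had an interval of 0.348 to 85.7, so no difference was detectable at this depth. It was the single member measured there and passed the 2-fold limit, as did 13.3% of 9110 genes in that direction. Macrophage-like cells held 134 Csf1 UMIs, 9.37 CPM (7.85 to 11.1), in the TAC library and 59 UMIs, 8.23 CPM (6.26 to 10.6), in the sham library. Classes from clusters turned the log2 ratio from 0.17 to -0.71, and leaving out cells with neutrophil markers gave a ratio of 0.94 (0.663 to 1.34). These levels were 9.27% and 8.64% of the highest level of their library among classes of at least 50 cells, which was that of fibroblast-like cells in the TAC and of endothelial-like cells in the sham library, while the summed fibroblast markers stood at 1.68% and 1.9% of their fibroblast-like level in the same macrophage-like cells. The share of Csf1 reads there that came from free RNA was not tested.

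**Figure D1:**
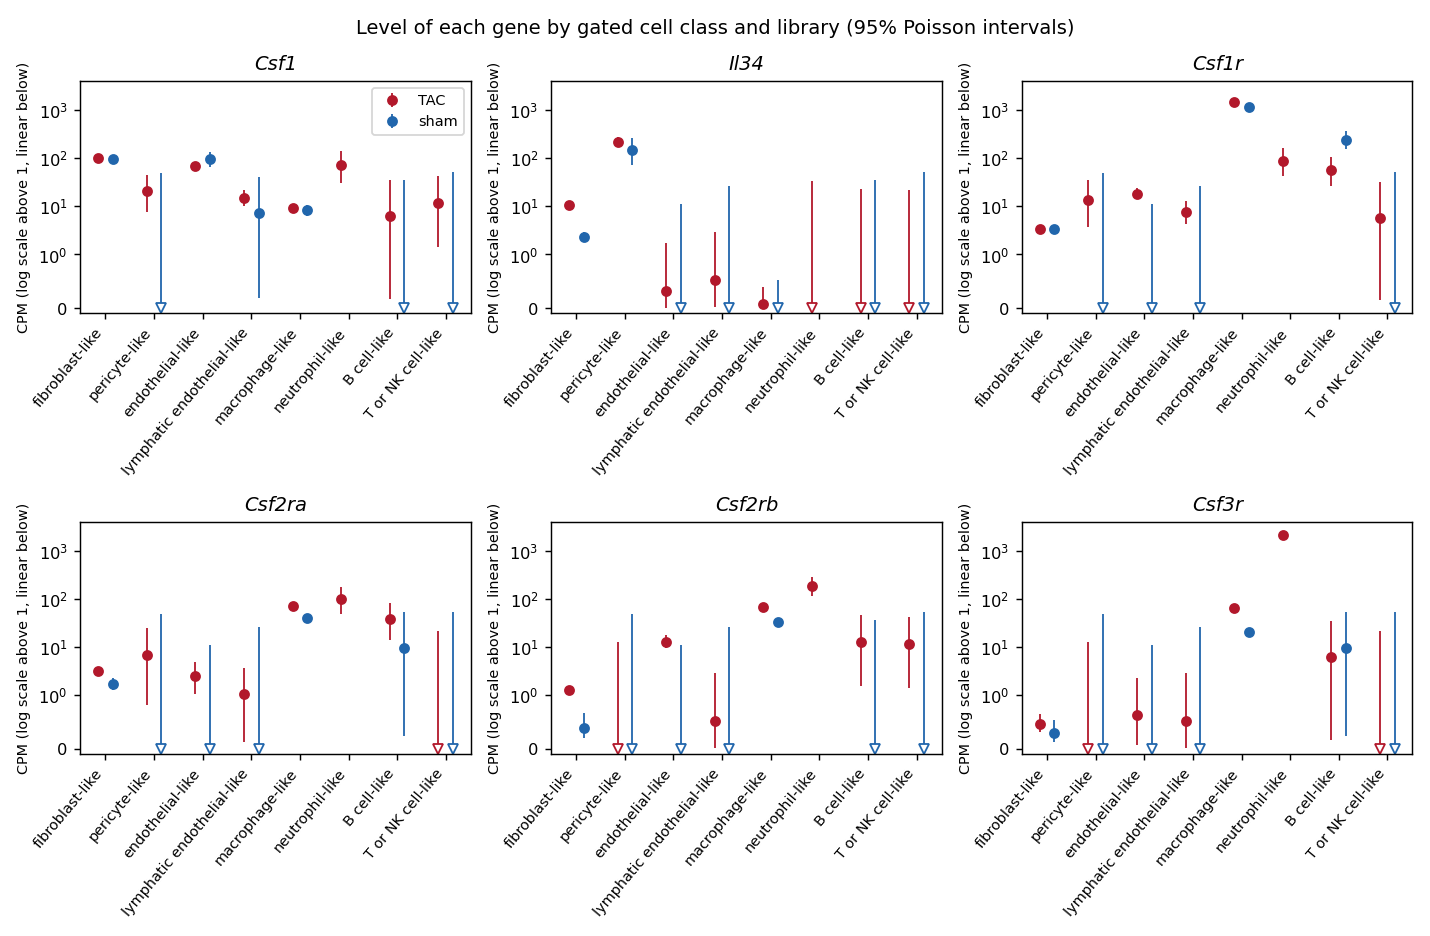
Level of each gene in CPM (log scale above 1, linear below) by gated class, TAC in red and sham in blue, with exact Poisson 95% intervals. Open triangles mark 0 UMIs, with the interval's upper end above them. Classes with under 20 cells in a library are left out, and endocardial-like and cardiomyocyte-like cells are not drawn. Csf1 stands near 100 CPM in fibroblast-like cells of both libraries (101 and 94.1), Il34 is highest in pericyte-like cells, and Csf1r stands above 1000 CPM in macrophage-like cells alone.

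Il34, the second ligand gene of CSF1R, was higher in fibroblast-like cells of the TAC library, though at a low level. It had 711 UMIs there, 10.6 CPM (9.85 to 11.4), against 73 UMIs, 2.31 CPM (1.81 to 2.91), in the sham library. The ratio was 4.6 (3.61 to 5.93), or 1.81 on the log2 scale of CPM + 1 and 0.74 with CPM + 10. Of the 2 members measured at 10 CPM or more in fibroblast-like cells, Il34 was the 1 at least 2-fold higher, beside 3.31% of 8818 genes in that direction and 2.69% in the other. The median log2 ratio over those genes was -0.0639. Without fibroblast-like cells that held 2 or more macrophage markers the Il34 ratio was 4.48 (3.52 to 5.79), and 3.28% of genes were then higher and 2.66% lower.

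At equal depth 3.23% of TAC fibroblast-like cells (2.77 to 3.75) and 0.843% of sham cells (0.608 to 1.14) held an Il34 UMI. No thinned macrophage-like cell of either library did, which allows up to 0.389% of TAC and 0.463% of sham cells by the exact interval. Unthinned shares were 8.8% in TAC and 1.11% in sham fibroblast-like cells. One TAC cell held 10 Il34 UMIs, and the highest sham cell held 2.

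Pericyte-like cells, which wrap capillaries, had the highest Il34 level in both libraries among classes of at least 20 cells. The 2 smooth muscle-like cells of the TAC library held 3 Il34 UMIs. In the TAC library 42 of 69 cells held 64 UMIs, 218 CPM (168 to 278), and in the sham library 7 of 34 cells held 11 UMIs, 146 CPM (72.8 to 261). These intervals overlap, and with 34 sham cells no ratio was formed. At 0.879% of TAC and 0.431% of sham cells, they held 8.06% (6.26 to 10.2) and 12.2% (6.26 to 20.8) of Il34 UMIs. Fibroblast-like cells held 89.5% (87.2 to 91.6) and 81.1% (71.5 to 88.6).

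Markers of other cell types were read in the same fibroblast-like cells. The 7 pericyte markers summed to 25.3 CPM in fibroblast-like cells of the TAC library and 34.8 CPM in those of the sham library, with all 7 detected in both. That is 0.104% of the TAC pericyte-like level, while Il34 in TAC fibroblast-like cells was 4.87% of its pericyte-like level. The 6 smooth muscle markers summed to 103.6 CPM in TAC fibroblast-like cells, with all 6 detected, and 26.3 CPM in sham fibroblast-like cells, with 5 detected. The 5 endocardial markers summed to 99.8 CPM in TAC and 33.8 CPM in sham fibroblast-like cells, with all 5 detected in both. The 25 endocardial-like cells of the sham library held 0 Il34 UMIs. The 7 Schwann cell markers summed to 29.4 CPM in TAC fibroblast-like cells, with all 7 detected, and 43.3 CPM in sham fibroblast-like cells, with 5 detected. Schwann cell-like cells held 4 Il34 UMIs in 6 TAC cells and 1 in 2 sham cells. The part of these cell types in the Il34 difference was not tested. Endothelial-like cells held 1 Il34 UMI in the TAC library and 0 in the sham library, and the same held for macrophage-like cells.

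**Figure D2:**
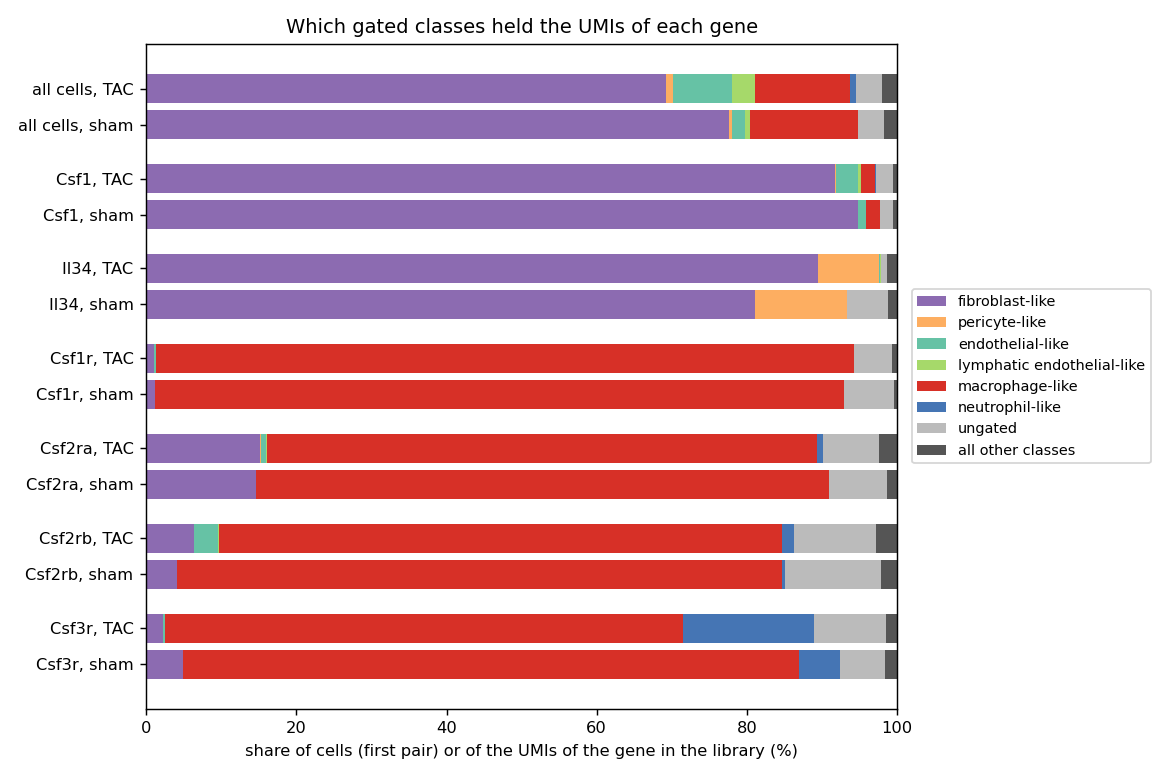
Share in percent of all kept cells (top pair) and of the UMIs of each gene held by each gated class, TAC above sham in each pair. Fibroblast-like cells held 91.8% and 94.8% of Csf1 UMIs, and macrophage-like cells held 92.9% and 91.8% of Csf1r UMIs.

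The ligands differed in how they followed fibroblast state genes, read in thinned cells. The states overlap: a cell can hold Pi16 or Dpp4 (adventitial), Comp or Thbs4 (matrix) and Postn (periostin, a gene of activated fibroblasts) together. Postn was detected in 68% of TAC and 4.1% of sham fibroblast-like cells, Comp or Thbs4 in 26.7% and 1.53%, and Pi16 or Dpp4 in 83% and 74.7%. None of these genes was found in 6.5% of TAC and 24.7% of sham cells.

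Csf1 varied little between cells with Postn, cells with Pi16 or Dpp4 and cells with none of these genes. It stood at 100 CPM (97.2 to 103) in TAC and 82.7 CPM (67.9 to 99.7) in sham cells with Postn, and at 94.9 CPM (85.5 to 105) and 88.9 CPM (81.8 to 96.5) in cells with none of these genes. Cells with Pi16 or Dpp4 had 101 CPM (98 to 103) in the TAC and 93.7 CPM (89.6 to 97.9) in the sham library. In each library that interval overlapped the one of cells with none of the genes. The highest Csf1 level was in cells with Comp or Thbs4, 116 CPM (111 to 121) in 1396 TAC cells and 145 CPM (112 to 185) in 76 sham cells. In both libraries that interval lay above those of the other 3 groups.

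Within the TAC library, Il34 was lowest in fibroblast-like cells without state genes. Cells with Postn had 12.7 CPM (11.7 to 13.8) in the TAC library, against 6.07 CPM (2.62 to 12), from 8 UMIs, in the sham library. Cells with none of the genes had 4.11 CPM (2.35 to 6.67) in the TAC library and 2.31 CPM (1.29 to 3.81) in the sham library, and these intervals overlap. With state genes read at full depth the TAC value was 2.24 CPM. TAC cells with Pi16 or Dpp4 had 10.7 CPM (9.87 to 11.6), against 2.36 CPM (1.76 to 3.11) in sham cells. The order within the TAC library thus ran from Postn through matrix genes, at 11.1 CPM (9.61 to 12.7), and adventitial genes to none, and of these steps between neighbours only the last lay beyond the intervals.

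Both ligands were seldom read in the same cell. At equal depth Il34 was found in 2.89% (2.13 to 3.82) of TAC fibroblast-like cells with Csf1 and 3.39% (2.82 to 4.03) of those without. In the sham library the shares were 0.606% (0.277 to 1.15) and 0.944% (0.651 to 1.32). These intervals overlap, so cells with and without Csf1 did not differ detectably in Il34.

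**Figure D3:**
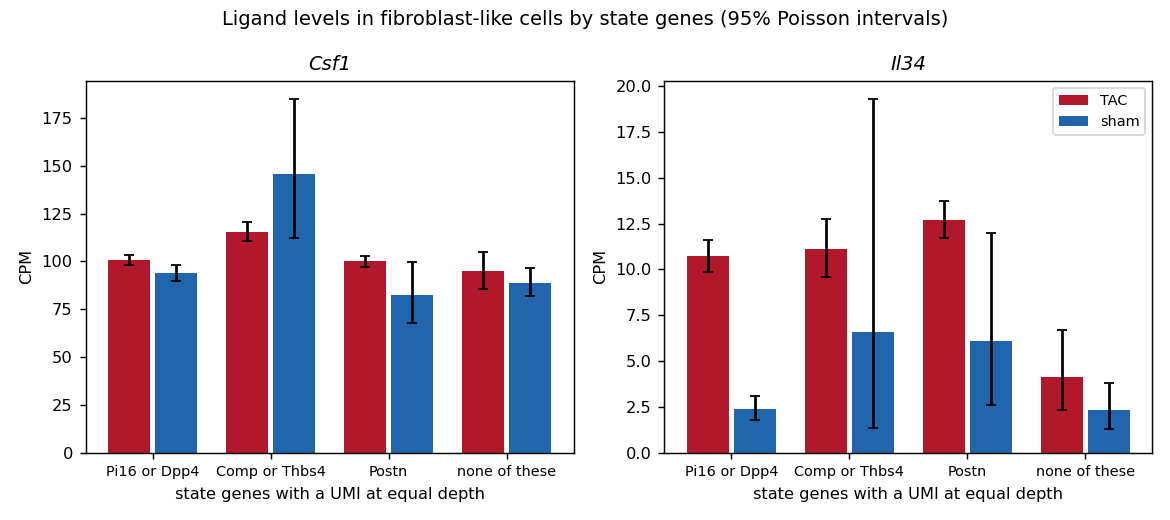
Csf1 (left) and Il34 (right) in CPM in fibroblast-like cells grouped by state genes detected at equal depth, TAC left of sham, with exact Poisson 95% intervals. Csf1 lies between 82.7 and 145 CPM in all groups, while Il34 is 12.7 CPM in TAC cells with Postn and 4.11 CPM in TAC cells with none of the genes, or 2.24 CPM with state genes read at full depth.

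Most gated fibroblast-like cells of the libraries fell into different clusters when all cells were clustered together. TAC cells lay mostly in cluster 0 (led by Col8a1, Meox1 and Postn; 41.6%), cluster 3 (led by Apod, C4b and Mmp3; 24.2%) and cluster 6 (led by Comp and Thbs4; 18.4%). Sham cells lay in clusters 5 (29.8%) and 4 (28.8%), both led by Ccl11, and cluster 2 (led by Efhd1 and Sema3c; 23.3%). Cluster 6 has the endocardial marker Cytl1 and no fibroblast marker among its 10 leading genes.

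Csf1r, the receptor gene of both ligands, lies at chr18:61100598-61132149 on the plus strand in mm10, where an exon overlaps Hmgxb3 on the opposite strand. It was read almost entirely in macrophage-like cells and was somewhat higher in those of the TAC library. They held 20971 of 22565 Csf1r UMIs in the TAC library, 92.9% (92.6 to 93.3), and 8115 of 8843 in the sham library, 91.8% (91.2 to 92.3). They were 12.6% and 14.4% of cells. The level was 1466 CPM (1447 to 1486) in the TAC library and 1131 CPM (1107 to 1156) in the sham library, a ratio of 1.3 (1.26 to 1.33) or 0.37 on the log2 scale. This was beyond counting error and below the 2-fold limit. Cluster 10, led by C1qc, C1qa and Lyz2, held 65.1% of the class in the TAC and 79.8% in the sham library. When classes were taken from clusters, 5 of which got no name, the share of Csf1r UMIs in macrophages was 50.8% in the TAC and 70% in the sham library, and the log2 ratio was 0.55.

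Nearly every macrophage-like cell held the receptor. At 3200 UMIs per cell, with 39 TAC and 206 sham cells too shallow to enter, a Csf1r UMI was found in 97.8% (96.7 to 98.6) of the TAC class and 95.9% (94.5 to 97.1) of the sham class. In fibroblast-like cells thinned alike the shares were 0.855% and 0.691%. The median cell held 17 Csf1r UMIs in the TAC and 6 in the sham library before thinning.

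In endothelial-like and B cell-like cells, Csf1r UMIs lay mostly in cells with macrophage markers, while in TAC neutrophil-like cells they lay outside them. In the TAC library endothelial-like cells held 59 UMIs, 18.3 CPM, of which 50 lay in the 29 cells that also held 2 or more macrophage markers, and 5 of those cells accounted for them. The sham library held 0 Csf1r UMIs in endothelial-like cells, and the TAC level was 2.05 times a floor of 3 counts in the sham class. That value leaves out counting error of the TAC level: the intervals were 13.9 to 23.6 CPM in the TAC and 0 to 11 CPM in the sham library. By the floor value Csf1r passed the 2-fold limit as 1 of 3 members measured, beside 8.37% of 9276 genes. The share over all genes was counted without this floor, so the 2 are not alike. Without the floor Csf2rb, at 13 CPM in the TAC and 0 in the sham library, would pass as well. The other 589 endothelial-like cells of the TAC library held 9 UMIs, 2.99 CPM, a level under the sham floor of 8.93 CPM.

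B cell-like cells held 9 Csf1r UMIs in the TAC library and 25 in the sham library. All 25 sham UMIs lay in 4 cells with 2 or more macrophage markers, as did 8 of the 9 TAC UMIs. All 10 Csf1r UMIs of TAC neutrophil-like cells lay in the 58 cells with fewer than 2 macrophage markers. Fibroblast-like cells stood at 3.32 CPM in the TAC and 3.39 CPM in the sham library, which is 0.226% and 0.299% of the macrophage-like level. The 8 macrophage markers summed there to 0.24% and 0.309% of their own-class level, close to those shares. Of the fibroblast-like Csf1r UMIs, 130 of 222 in the TAC library and 50 of 107 in the sham library lay in cells with fewer than 2 macrophage markers. Monocyte-like cells, 19 in the TAC and 5 in the sham library, held 140 and 8 Csf1r UMIs. Their level was 596 CPM (502 to 703) in the TAC library, 40.7% of the macrophage-like level, with the gene in 18 of the 19 cells. In the 5 sham cells it was 262 CPM (113 to 517).

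Macrophage-like cells with Timd4, a gene of long-lived resident macrophages, were 5.77% of the TAC and 31.5% of the sham class at equal depth. Those with Ccr2, the chemokine receptor of recruited monocytes, were 38.4% and 22.6%. Csf1r stood at 1686 CPM (1598 to 1778) in TAC and 1140 CPM (1097 to 1185) in sham cells with Timd4. With Ccr2 it stood at 1348 CPM (1318 to 1377) in TAC and 916 CPM (874 to 959) in sham cells. In both libraries the Ccr2 group was the lowest, and in each group the TAC level was above the sham level beyond counting error, also in cells with neither gene, at 1526 CPM (1498 to 1554) and 1175 CPM (1137 to 1214).

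The chains of the GM-CSF receptor were both higher in macrophage-like cells of the TAC library. Csf2ra had 1031 UMIs, 72.1 CPM (67.8 to 76.6), in the TAC library and 287 UMIs, 40 CPM (35.5 to 44.9), in the sham library, a ratio of 1.8 (1.58 to 2.06). Csf2rb had 992 UMIs, 69.4 CPM (65.1 to 73.8), in the TAC library and 233 UMIs, 32.5 CPM (28.5 to 36.9), in the sham library, a ratio of 2.14 (1.85 to 2.47). Of 4 members measured in macrophage-like cells, Csf2rb and Csf3r passed the 2-fold limit, beside 3.82% of 8419 genes higher and 1.67% lower. The median log2 ratio over those genes was -0.0328.

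At equal depth Csf2ra was found in 21% (18.4 to 23.7) of the TAC and 12.6% (10.6 to 15) of the sham class, and Csf2rb in 18.4% (16 to 21.1) and 9.43% (7.63 to 11.5). In fibroblast-like cells thinned alike, Csf2ra was found in 0.779% of TAC and 0.527% of sham cells, and Csf2rb in 0.323% and 0.145%. Unthinned macrophage-like shares were 53.4% and 20.8% for Csf2ra, and 47.9% and 16% for Csf2rb. No link between the chains from cell to cell was detectable. Csf2ra was found in 21% (15.3 to 27.8) of TAC macrophage-like cells with Csf2rb and 21% (18.1 to 24) of those without, and in 14.8% (8.11 to 23.9) and 12.4% (10.3 to 14.8) of sham cells.

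By state, Csf2ra in the TAC library was 86.6 CPM (79.3 to 94.4) in cells with Ccr2 and 40.6 CPM (28 to 57) in cells with Timd4, which lie apart. In the sham library it was 46 CPM (37 to 56.5) and 40.3 CPM (32.5 to 49.4), which overlap. In cells with Timd4 the libraries did not differ detectably in Csf2ra. Csf2rb was 69.8 CPM (63.2 to 76.8) with Ccr2 and 45.5 CPM (32.1 to 62.8) with Timd4 in TAC cells, against 39.9 CPM (31.6 to 49.8) and 32.4 CPM (25.5 to 40.7) in sham cells. TAC cells with neither gene had 71.6 CPM (65.7 to 77.9) of Csf2rb, which overlaps the Ccr2 group, and sham cells 31.8 CPM (25.7 to 38.8). For Csf2ra, cells with neither gene had 63.5 CPM (58 to 69.5) in the TAC and 36.4 CPM (29.9 to 43.9) in the sham library.

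Macrophage-like cells held 73.3% of Csf2ra UMIs in the TAC and 76.3% in the sham library, and fibroblast-like cells 15.2% and 14.6%. That is a low level over many cells: 3.2 CPM (2.78 to 3.65) in TAC and 1.74 CPM (1.31 to 2.27) in sham fibroblast-like cells. These were 4.35% of the macrophage-like level in the sham library, where macrophage markers stood at 0.309% of theirs. Of Csf2rb UMIs, macrophage-like cells held 75% and 80.6%. TAC endothelial-like cells held 42 Csf2rb UMIs, 13 CPM (9.39 to 17.6), and 33 of these lay outside the cells with macrophage markers. The sham library held 0 in 134 cells, an interval of 0 to 11 CPM that overlaps the TAC interval. The TAC level was 1.46 times the floor of 3 counts in the sham class.

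Csf3r, the G-CSF receptor gene, had the largest ratio in macrophage-like cells among the 4 members measured there. In the TAC library, though not in the sham library, most of its UMIs in this class lay in cells that also held neutrophil genes. Csf3r had 933 UMIs, 65.2 CPM (61.1 to 69.6), in the TAC library and 150 UMIs, 20.9 CPM (17.7 to 24.5), in the sham library, a ratio of 3.12 (2.62 to 3.73) or 1.6 on the log2 scale. The neutrophil markers summed to 2548 CPM in TAC and 221 CPM in sham macrophage-like cells, with all 8 detected in both. Cells with 2 or more of them were 158 of the TAC class, 15.9%, and 21 of the sham class, 1.84%. This cut was read in unthinned cells, at a median of 9869 UMIs in the TAC and 4669 in the sham class. The part of depth in these shares was not tested.

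Those 158 TAC cells held 693 of the 933 Csf3r UMIs, at 195 CPM (181 to 210), and the 21 sham cells held 36 of 150, at 157 CPM (110 to 217). In the remaining cells Csf3r stood at 22.3 CPM (19.6 to 25.3) in the TAC library and 16.4 CPM (13.5 to 19.7) in the sham library. The ratio there was 1.36 (1.08 to 1.71), below the 2-fold limit. With the same cells left out, which was decided on after seeing the data, the ratio was 1.84 (1.57 to 2.15) for Csf2rb, also below the limit, 1.81 (1.58 to 2.09) for Csf2ra and 1.35 (1.32 to 1.39) for Csf1r. No member then passed the limit in macrophage-like cells, beside 3.45% of 8398 genes higher and 1.8% lower. With classes from clusters the log2 ratio of Csf3r was 0.56, against 1.6 as gated.

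**Figure D4:**
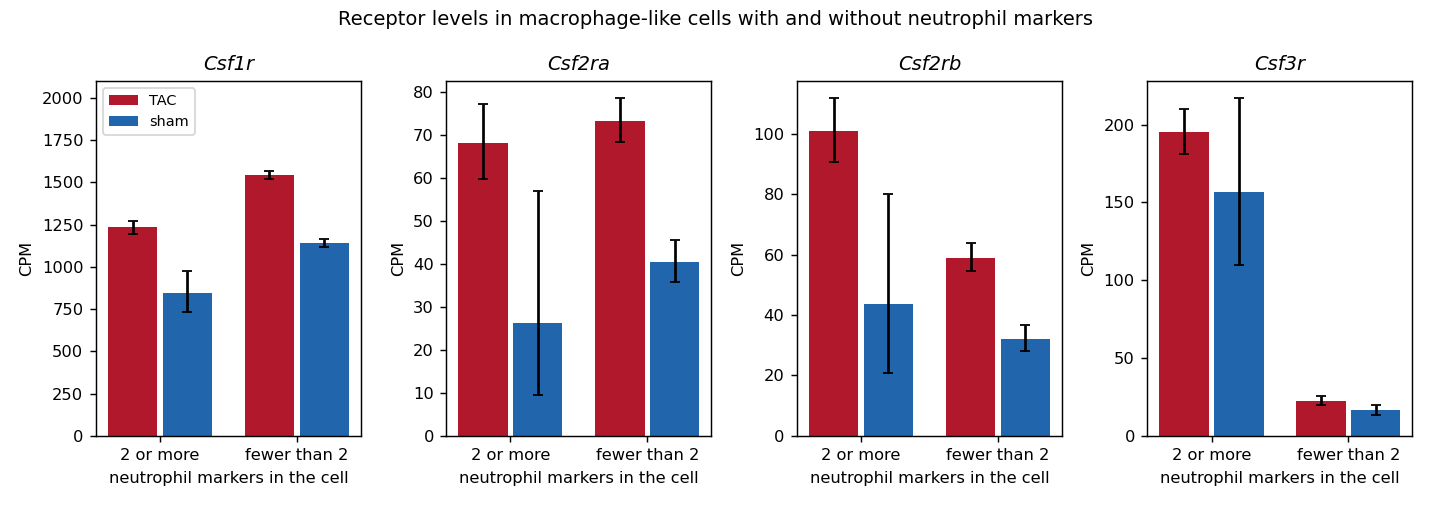
Receptor levels in CPM in macrophage-like cells with 2 or more neutrophil markers (158 TAC and 21 sham cells) and with fewer, TAC left of sham, with exact Poisson 95% intervals. Csf3r is 195 and 157 CPM in cells with the markers and 22.3 and 16.4 CPM in the rest, while Csf1r and Csf2ra stay higher in TAC cells of both kinds.

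Clustering put 108 of the TAC and 11 of the sham macrophage-like cells in a cluster led by S100a9, S100a8 and Retnlg, with Csf3r among its 10 leading genes. The part of neutrophil RNA in these values was not tested. At equal depth Csf3r was found in 13.5% (11.4 to 15.9) of the TAC and 6.65% (5.13 to 8.44) of the sham class, against 0.095% and 0.0364% of fibroblast-like cells thinned alike and 32% and 10.4% unthinned. Without the cells with neutrophil markers the TAC share was 6.78% and the sham share 5.9%.

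Neutrophil-like cells themselves had the highest Csf3r level among gated classes. The 63 TAC cells held 237 UMIs, 2112 CPM (1851 to 2398), and 61 of them held at least 1. The 4 sham cells held 10 UMIs, too few for a comparison. Neutrophil-like cells held 17.5% (15.5 to 19.7) of Csf3r UMIs in the TAC and 5.46% (2.65 to 9.82) in the sham library, and macrophage-like cells 69% (66.5 to 71.5) and 82% (75.6 to 87.2), or 11.8% and 45.9% with classes from clusters. In the TAC library neutrophil-like cells were also highest for Csf2rb among classes of at least 20 cells, at 187 CPM (116 to 286), above macrophage-like cells, and their Csf2ra level of 98 CPM (48.9 to 175) overlapped the macrophage-like interval.

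Csf3r by state moved with the same cells. TAC cells with Ccr2 had 63.1 CPM (56.9 to 69.8), those with Timd4 65.2 CPM (48.9 to 85.3) and those with neither 69 CPM (63.2 to 75.1), which overlap. Sham cells had 18.7 CPM (13.2 to 25.8), 15.8 CPM (11.1 to 21.8) and 22.8 CPM (17.8 to 28.9). Without cells with neutrophil markers, the TAC values with Ccr2 and with neither gene were 21.5 and 23 CPM.

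**Figure D5:**
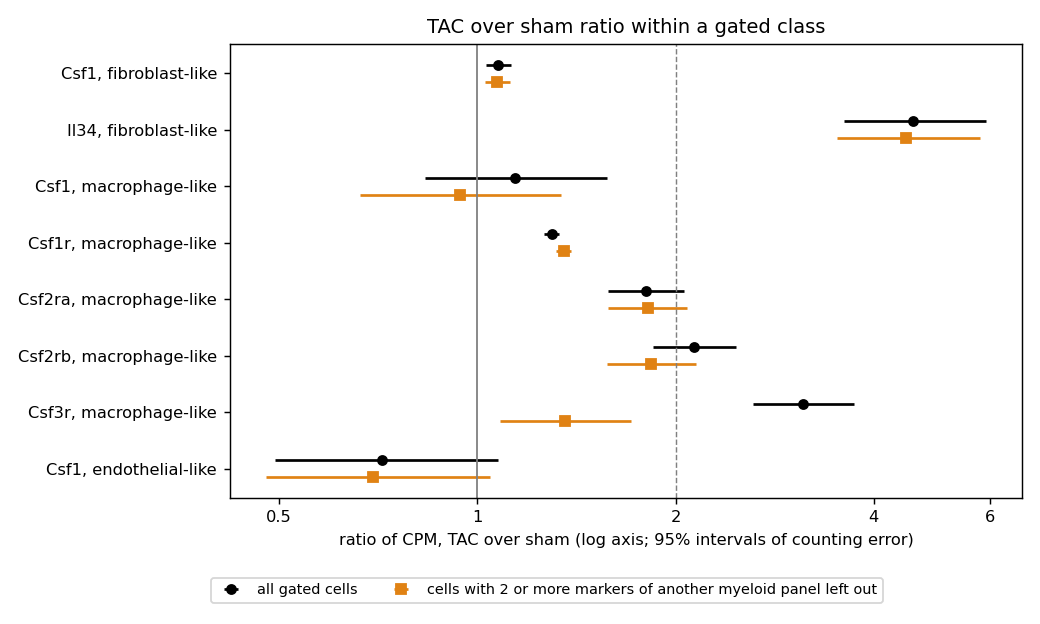
Ratio of CPM, TAC over sham, on a log axis with exact conditional 95% intervals, for all gated cells (black circles) and with cells holding 2 or more markers of another myeloid panel left out (orange squares). The dashed line marks 2-fold. Csf3r in macrophage-like cells shifts from 3.12 to 1.36, while Il34 in fibroblast-like cells stays at 4.6 and 4.48.

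Genes with the most similar patterns were sought over 11 sums of a class in a library of at least 50 cells, among 6812 genes at 50 CPM or more in at least 1 sum, by Pearson correlation of log2(CPM + 10). The sums share libraries and so depth. Csf1 was most like Pi16, an adventitial fibroblast gene (r = 0.933), and its closest genes also held Smtnl2, Pxdn and Pdgfrl (0.889). Il34 was most like Ednra, an endothelin receptor gene (0.999), then Rasl12, Map7d2, Rgs4 and the pericyte marker Notch3 (0.993), and the TAC library gave the 1 pericyte-like sum among the 11. Csf1r was most like Rgs1 (0.988), then the macrophage marker C1qc, Clec4a3, Fcgr2b and Unc93b1. Csf2ra was most like C5ar1, the receptor gene for complement C5a (0.981), and Csf2rb most like Rhog (0.985). Csf3r was most like Fgr, a kinase gene of myeloid cells (0.994), then Trpm2, Clec4d, Slfn1 and Lilra6. The TAC library gave the 1 neutrophil-like sum among the 11, with Csf3r at 2112 CPM, against 65.2 CPM in TAC macrophage-like cells.

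Genes of the same pathway and its partners, 10 lists in all, were read against the same limits. In macrophage-like cells 5 of 100 listed genes at 10 CPM or more were at least 2-fold higher, 5%, and 6 were lower, 6%, beside 3.82% and 1.67% of all genes. At a 1.5-fold limit 14 were higher and 14 lower, beside 8.56% and 6.14% of all genes. Among genes that signal from CSF1R, 1 of 24 was higher and 1 lower, with a median log2 ratio of 0.21. Fgr had 30 CPM in the TAC and 6 CPM in the sham library, a ratio of 5 (3.65 to 7.02), and 3.89 without cells with neutrophil markers. Dok2, an adaptor that restrains kinase signalling, had 82.5 CPM against 213 CPM, a ratio of 0.387 (0.358 to 0.418). Plcg2 and Gab2, which act downstream of the receptor, had ratios of 1.76 and 1.75, under the limit.

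None of 14 JAK and STAT genes of the GM-CSF and G-CSF receptors reached 2-fold in macrophage-like cells, in either direction, with a median of 0.28. Stat3 came nearest at 117 CPM in TAC and 61.5 CPM in sham cells, a ratio of 1.9 (1.71 to 2.11). Among transcription factors of the macrophage lineage 1 of 13 was higher, Cebpa, with 184 CPM against 78.4 CPM and a ratio of 2.35 (2.15 to 2.58). Cebpb had a ratio of 1.62. Of receptors for other growth factors of blood cells, 3 of 6 were higher: Cxcr4, the receptor gene for CXCL12, with 109 CPM in TAC and 41.7 CPM in sham cells (2.61), Flt3 (3.09) and Il15ra (2.05). Flt3 is also a dendritic cell marker and was below 10 CPM without cells with neutrophil markers.

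Of growth and survival factors, Kitl, which encodes stem cell factor, was the 1 of 6 that was lower in macrophage-like cells, at 27.2 CPM in TAC and 57.5 CPM in sham cells, a ratio of 0.474 (0.411 to 0.545). None of 5 shedding genes and none of 10 genes of inflammatory input reached 2-fold. Il1b, the gene of a cytokine made by myeloid cells, had 463 CPM in TAC and 358 CPM in sham cells, and 245 and 323 CPM without cells with neutrophil markers, so its direction turned. None of 11 cell cycle genes reached 2-fold, with a median of -0.43, and without those cells 3 were lower, Top2a, Birc5 and Ube2c, the last named after its value was seen. The other 4 lower genes, Atf3, Hspa1a, Hspa1b and Dnajb1, stand on the list of dissociation and stress.

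In fibroblast-like cells 5 of 73 listed genes were at least 2-fold higher, 6.85%, and 11 were lower, 15.1%, beside 3.31% and 2.69% of all genes. At a 1.5-fold limit 8 were higher and 21 lower, beside 7.8% and 7.67% of all genes. Of the 11 lower genes, 8 belong to the dissociation and stress list, among them Fos with 1818 CPM in TAC and 4919 CPM in sham cells. Socs3, an inhibitor of cytokine receptor signalling that stands on that list and on the JAK and STAT list, had 149 CPM in TAC and 829 CPM in sham cells, a ratio of 0.18 (0.176 to 0.184). Socs1 had 25.9 CPM against 118 CPM, a ratio of 0.219 (0.207 to 0.232). How much of the difference between libraries in these genes arose during digestion was not tested.

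The 5 higher genes were Tgfb1, Runx1, Irf8, Gab2 and Dok1. Tgfb1, which encodes a growth factor known to activate fibroblasts, had 156 CPM in TAC and 36 CPM in sham cells, a ratio of 4.33 (4.07 to 4.61). Runx1, a transcription factor gene, had 25.8 CPM against 5.57 CPM, a ratio of 4.62 (3.96 to 5.43). None of 4 genes of ectodomain shedding reached 2-fold in fibroblast-like cells. Adam17, which encodes a protease that releases membrane-bound CSF1, had 48.7 CPM in TAC and 45.1 CPM in sham cells, and Timp3, its inhibitor, had 369 and 618 CPM, a ratio of 0.596. None of 8 genes of inflammatory input reached 2-fold, with a median of 0.05, and the receptor genes Tnfrsf1a and Il1r1 had ratios of 1.24 and 0.816.

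In endothelial-like cells 9 of 77 listed genes were at least 2-fold higher, 11.7%, and 8 were lower, 10.4%, beside 8.37% and 8.09% of all genes. In lymphatic endothelial-like cells 7 of 72 were higher, 9.72%, and 11 were lower, 15.3%, beside 13.3% and 11.8%. In both classes these shares were near those of all genes.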

How the data were processed

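Single-cell RNA of non-cardiomyocytes was measured in 1 TAC and 1 sham library. The authors deposited unnormalized UMI counts, a gene-by-barcode matrix per library. Per the file headers these came from Cell Ranger 3.1.0. The build mm10 and Seurat are named in the submitters' processing notes, and the annotation is not given in the sources used here. Of 31053 gene IDs, 30934 matched GENCODE vM21. Cells needed 500 genes, 1000 UMIs and at most 15% mitochondrial UMIs (901 TAC and 462 sham barcodes failed), and Scrublet in Scanpy 1.11.5 (expected rate 0.07) removed 146 TAC (1.82%) and 70 sham (0.879%) doublets. Remaining cells were gated by markers on counts scaled to 10000 per cell, each marker capped at its 99th percentile.

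UMIs were summed per class and library as CPM. Ratios on the log2 scale used CPM + 1, and a member at 0 UMIs was given a floor of 3 counts in the class. A ratio to that floor leaves out counting error of the other library. A call is a 2-fold difference among genes at 10 CPM or more, and counts over all genes and over lists used no floor. Intervals are 95% Poisson, conditional or Clopper-Pearson (SciPy 1.17.1). For shares, cells were thinned to 1 depth per class, set at percentile 20 in the shallower library. Named genes are the 6 members, up to 4 genes per list and class by size of log2 ratio, and the 5 most like each member, of which some are not reported here; genes of the closing section were chosen after their values were seen. The steps were tested on simulated data. The members, lists and markers were chosen with earlier results of these data known. Alternatives were other filters, gates, pseudocounts, scalings, depths and limits, and classes from Leiden clusters (igraph 0.11.9, resolution 1).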

Additional observations from a re-analysis of the deposited data

How the results depend on the processing

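Of 215 values recomputed under alternatives, 150 stayed within their counting interval or within 1.5 times the count, 65 moved, and no called value changed sign. No paired analysis was possible because each group is 1 library and no result comes from a test; leaving out a replicate was impossible for the same reason. Filters on cells, kept doublets and the looser gate moved no value. The cause was not tested for moves other than those that follow from how an alternative is built.

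With median-of-ratios size factors the log2 ratio of Csf1 in fibroblast-like cells was 0.17, and the stricter gate gave 0.12 in endothelial-like cells. A pseudocount of 10 CPM, which shrinks low genes, gave 0.74 for Il34 and 0.73 for Csf2rb2 in fibroblast-like cells and 1.28 for Csf3r in macrophage-like cells. Thinning gave 0.44 for Csf1r. Leaving out cells with 2 or more markers of another myeloid panel, counted in unthinned cells, was an alternative added after seeing the data. It gave log2 ratios of 0.44 for Csf1r, 0.86 for Csf2rb and 0.42 for Csf3r. The same step gave shares at equal depth in TAC macrophage-like cells of 14.9% for Csf2rb and 6.78% for Csf3r. It also gave Csf3r levels of 21.47 CPM in TAC cells with Ccr2 and 23.04 CPM in TAC cells with neither state gene. Csf1r was then 1185 CPM in sham cells with Timd4, and Il34 11.46 CPM in TAC cells with Postn and no matrix gene, against 13.11 CPM with all cells.

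Classes from clusters dropped the cells of 5 unnamed clusters. The log2 ratios in macrophages were then -0.71 for Csf1, 0.55 for Csf1r and 0.56 for Csf3r. Levels were 97.97 CPM for Csf1 in TAC fibroblasts, and 1776 CPM in the TAC and 1217 CPM in the sham library for Csf1r in macrophages. Shares of macrophages at equal depth were 99.2% for Csf1r and 15.1% for Csf2rb in the TAC library, and for Csf3r 7.78% in the TAC and 4.91% in the sham library. Fibroblasts held 71% of Csf1 UMIs in the TAC and 93.6% in the sham library and 72.2% of Il34 UMIs in the TAC library, and endothelial cells held 0.542% of Csf1 UMIs in the sham library. Macrophages held 50.8% of Csf1r UMIs in the TAC and 70% in the sham library, and 11.8% and 45.9% of Csf3r UMIs.

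Shares of cells fall with depth by construction. At 0.5 times the thinned depth Csf1 was found in 17.6% of TAC and 15.7% of sham fibroblast-like cells and Il34 in 1.57% and 0.422%. In macrophage-like cells the TAC and sham shares were 87.2% and 83.1% for Csf1r, 10.5% and 6.11% for Csf2ra, 10.5% and 5.14% for Csf2rb, and 7.97% and 2.89% for Csf3r. Asking for 2 UMIs gave 7.04% and 5.68% for Csf1, 0.306% and 0.0201% for Il34, 92.1% and 86.5% for Csf1r, 2.83% and 0.857% for Csf2ra, 2.41% and 0.75% for Csf2rb, and 3.88% and 0.429% for Csf3r. Every TAC share stayed above its sham share in both steps.

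State genes read at full depth gave 110.2 CPM for Csf1 in TAC cells with Comp or Thbs4, 11.21 CPM for Il34 in TAC cells with Postn and no matrix gene, and 2.239 CPM for Il34 in TAC cells with none of the genes. Among listed genes, a 1.5-fold limit gave 8 higher and 21 lower in fibroblast-like cells and 14 higher and 14 lower in macrophage-like cells. A level of at least 50 CPM left 2 higher in macrophage-like cells. Among the 4 compared classes, depth limits sham endothelial-like and lymphatic endothelial-like cells most, where 3 UMIs are 8.93 and 21.4 CPM.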

Other observations

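Other ligands of the family were scarce. Csf2, which encodes GM-CSF, had 31 UMIs in 17 TAC cells and 64 UMIs in 23 sham cells, 44 of the sham UMIs in macrophage-like cells. Csf3, which encodes G-CSF, had 1 UMI in each library. Il3 had 0 UMIs in both, and Il5 had 4 UMIs in the TAC and 0 in the sham library. Of the second receptors of IL-34, Ptprz1 had 21 UMIs in the TAC and 16 in the sham library, with 8 and 11 of them in Schwann cell-like cells. Sdc1, which encodes syndecan-1, had 26.4 CPM in TAC and 14.3 CPM in sham fibroblast-like cells, a ratio of 1.84 (1.66 to 2.05).

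Csf2rb2, which encodes the IL-3-specific beta chain of mice, is the near-copy of Csf2rb. Fibroblast-like cells held 60.3% (57.3 to 63.3) of its UMIs in the TAC library and 31.7% (24.7 to 39.4) in the sham library, and macrophage-like cells 30.8% and 64%. Its level in fibroblast-like cells was 9.38 CPM in the TAC and 1.65 CPM in the sham library, a ratio of 5.7 (4.29 to 7.72), under the 10 CPM limit for calls. In macrophage-like cells it was 22.5 CPM against 14.6 CPM, a ratio of 1.53 (1.23 to 1.93). At equal depth 3.4% of TAC and 0.643% of sham fibroblast-like cells held a UMI of it, and no thinned lymphatic endothelial-like cell did, in 229 TAC and 10 sham cells. Il3ra, the alpha chain of the IL-3 receptor, had 34.2 CPM in TAC and 31.5 CPM in sham fibroblast-like cells, a ratio of 1.08 (1 to 1.17).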
